A study of Homo sapiens with 17 samples.

Results

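The transcripts held by the nuclear poly(A)-binding protein PABPN1 (PABPN) were described by comparing the average TPM of each gene in the PABPN immunoprecipitation (IP) with its average TPM in the Input. TPM is the share of a library taken by a transcript after scaling for its length. A gene was included when its TPM was at least 5 in both columns, which 9118 of the 18869 genes listed met; 16905 genes had TPM values. The cells were HEK293T, an established human embryonic kidney line, stably transduced to carry either RPS2-STAMP, in which the cytidine deaminase APOBEC1 is joined to RPS2, a protein of the small ribosomal subunit, or Control-STAMP, APOBEC1 alone. Both constructs were induced with doxycycline at 50 ng/mL for 24 h, and all cells were crosslinked with formaldehyde, so every library in the comparison carries an induced editor. Input RNA was not immunoprecipitated. The labels give 6 Input and 6 PABPN IP samples, 3 replicates of each construct. By the study's text, cells were fractionated, and both IPs and the Input they were compared with came from the cytoplasmic portion only. The sample labels name no fractionation. Read with the study's text, the ratios compare RNA of the cytoplasmic portion and do not measure PABPN binding in the nucleus. The sources do not say which of the samples each average covers. The averages are pooled over replicates and, as far as the columns show, over constructs, so no replicate error, test or p-value can be given for any value here, and the columns hold no read counts. The methods of the study state read depth as a minimum and an average over libraries, not for each library. In such bulk material, a lower value from fewer cells holding an RNA and one from fewer copies per cell cannot be told apart.

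PABPN1 binds the poly(A) tail while it is being made in the nucleus and makes poly(A) polymerase processive. It also works with the PAXT complex, which passes nuclear polyadenylated RNAs to the exosome for decay. After export the tail is taken over by cytoplasmic PABPs, of which PABPC1 is the main one in somatic cells, and these promote translation and mRNA stability. The PABPC IP of the same series is given beside the PABPN IP below for orientation only, because both ratios share the same Input.

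The whole composition shifted between Input and IP. The noncoding RNAs 7SK, which holds the transcription elongation factor P-TEFb inactive, and RN7SL1, the RNA of the signal recognition particle, together took 35.4% of the TPM sum of the Input and 3.45% of that of the PABPN IP, against 0.730% in the PABPC IP. Among the 9118 genes, 8746 had a higher TPM in the PABPN IP than in the Input, and the median ratio was 2.16-fold, or 1.11 on the log2 scale. All PABPN IP ratios below are therefore log2 ratios of average TPM centred on this median. The words "above" or "below" are relative to the median gene, not to the Input. A gene with a centred value between -1.11 and 0 was still higher in the PABPN IP than in the Input. Centred values of the PABPC IP were taken from the median log2 ratio of the PABPC IP over Input, which was 0.99. Genes were sorted at limits of 0.5 in log2 to each side. By these, 2285 genes (25.1% of those tested) lay above the median by more than 0.5, 2017 genes (22.1%) lay below it by more than 0.5, and 4816 genes lay within 0.5. At a limit of 1, 851 genes (9.33%) lay above and 513 genes (5.63%) below. The quartiles were -0.44 and 0.50 and the extremes -6.51 and 3.76. Of 10 genes listed as HEK293T markers, 9 had a TPM and 6 reached 5 in the Input, with VIM at 184 TPM, while of 11 markers of other cell types 3 had a TPM and none reached 5.

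Transcripts that end without a poly(A) tail were described first, since a tail is what PABPN binds. Replication-dependent histone mRNAs end in a short stem-loop held by the stem-loop binding protein instead of a tail. All 37 that were tested lay below the median by more than 0.5, beside 22.1% of all genes, with a median of -4.64, which is 24.9-fold below the median gene. The group went from 6.87% of the TPM sum in the Input to 0.591% in the PABPN IP, with a median TPM of 1101 in the Input and 101 in the PABPN IP. To show what sets their ends apart, the last bases of a few mRNAs are printed here, read from the hg38 genome at the canonical transcript end of GENCODE release 44, 5′ to 3′ on the transcript strand. Capitals mark the stem-loop in the first 3 and the polyadenylation signal AATAAA in the others.
H4C4, chr6:26188710-26188735, minus strand: ccaacGGCCCTTTTCAGGGCCaccta
H2AC7, chr6:26198784-26198809, minus strand: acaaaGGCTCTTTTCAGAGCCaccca
H3C7, chr6:26250142-26250165, minus strand: ccaaaGGCTCTTTTCAGAGCCacc
H2BC21, chr1:149884459-149884488, minus strand: gttattAATAAAgttaccaattaatttaaa
H2AZ1, chr4:99948088-99948117, minus strand: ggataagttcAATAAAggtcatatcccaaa
H3-3B, chr17:75776434-75776463, minus strand: atgagactaaAATAAAatttttgaagttaa
H1-10, chr3:129314771-129314800, minus strand: ttgggcacAATAAAgcgtttaaacctttca

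H4C4, a histone H4 gene, had 2916 TPM in the Input and 182 in the PABPN IP, a centred value of -5.11 and the lowest of the protein-coding genes. H2AC7, a histone H2A gene, went from 1181 to 77.3 TPM (-5.04), and H3C7, a histone H3 gene, from 225 to 14.8 TPM (-5.04). The other 7 of the 10 lowest protein-coding genes were H4C2, H4C1, H3C12, H2AC20, H2BC18, H2BC7 and H3C10, between -5.08 and -4.82, so histone mRNAs filled the whole lower end. By protein, the medians were -4.76 for the 7 H4 genes, -4.81 for the 6 H3 genes, -4.70 for the 11 H2A genes, -4.62 for the 10 H2B genes and -3.76 for the 3 genes of linker histone H1. The least depleted member was H3C6, with 17.2 TPM in the Input and 14.8 in the PABPN IP (-1.33). Before centring, all 37 ratios were still below 1.

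The stem-loop was searched as GGCNCTTNTNAGNGCC on the transcript strand in the last 100 bases of each canonical transcript. It was found in 38 of 8630 protein-coding genes tested with a sequence (0.440%), and all 38 lay below the median by more than 0.5, with a median of -4.63. Of these, 35 were in the histone list, and the other 3 were H2AW (-3.10), H2BU1 (-4.16) and H4-16 (-4.32), also histone genes. AATAAA in the last 50 bases, without the stem-loop, was found in 66.5% of the protein-coding genes tested, with a median of -0.01. H2BC21, shown above, has AATAAA at its annotated canonical end, and its TPM was 733 in the Input and 69.8 in the PABPN IP (-4.50), in the range of the stem-loop genes. H2AC15 had neither sequence at its annotated end and lay at -4.13. These annotated ends are not the measured ones, and whether these 2 genes used another end was not tested.

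Histone variants, most of which are made throughout the cell cycle from polyadenylated mRNAs, were much closer to the median gene. Of 10 tested, 5 lay below by more than 0.5 (beside 22.1% of all genes) and none above (beside 25.1%), with a median of -0.52 that was 0.58 before centring, so the direction depends on the scaling. It also turned, to 0.23, over the 2 variants that neither overlap nor lie close to another gene. H2AX, the variant phosphorylated at DNA breaks, was lowest, with 650 TPM in the Input and 475 in the PABPN IP (-1.56). H2AZ1 went from 555 to 518 TPM (-1.21) and H3-3B from 125 to 140 TPM (-0.94). H1-10 went from 189 to 309 TPM (-0.40), and H2AZ2 was highest, from 74.1 to 225 TPM (0.50). In the PABPC IP the variants had a centred median of 0.25 and the replication-dependent histones one of -4.17.

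**Figure D1:**
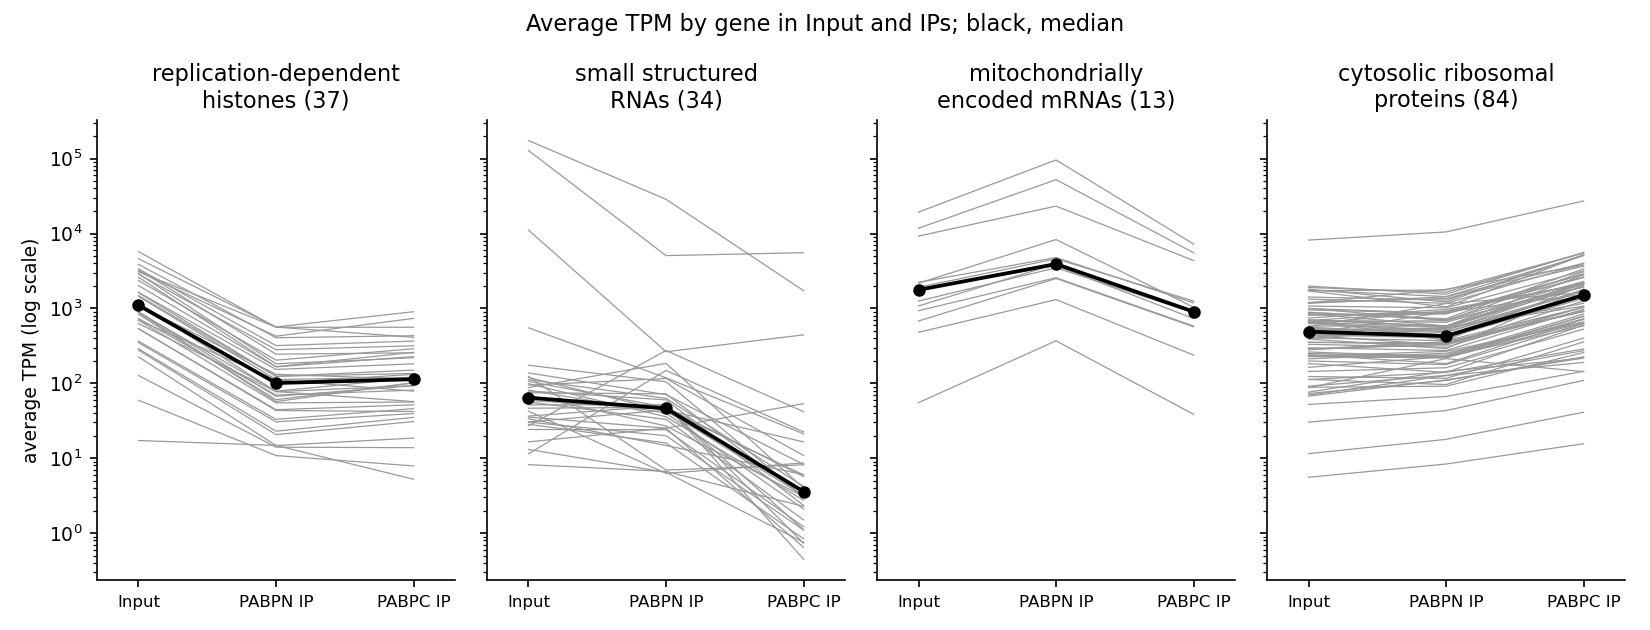
Average TPM (log scale) of each gene in 3 columns (Input at left, PABPN IP, PABPC IP at right) for replication-dependent histones, small structured RNAs, mitochondrially encoded mRNAs and cytosolic ribosomal protein mRNAs; grey lines are single genes, the black line their median, and 2 small RNA genes with a TPM of 0 in the PABPC IP are left out. Histone mRNAs had a median of 101 TPM in the PABPN IP. The median of mitochondrial mRNAs went from 1768 to 3913 TPM, beside a median ratio of 2.16-fold over all genes tested.

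Small structured RNAs, whose mature forms carry no tail, were also mostly low. Of 36 tested, 32 lay below the median by more than 0.5 and 2 above it, with a median of -1.91 (-0.80 before centring), beside 22.1% of all genes below and 25.1% above. 7SK, transcribed by RNA polymerase III, was the most abundant RNA of the Input at 174271 TPM and was at 28629 TPM in the PABPN IP (-3.71) and 1725 TPM in the PABPC IP. RN7SL1 went from 128398 to 5066 TPM (-5.77), and RN7SL3 from 11110 to 264 TPM (-6.51), the lowest value of any gene tested. The long noncoding gene ENSG00000282885, which overlaps another gene in the RN7SL region of chromosome 14, went from 17600 to 436 TPM (-6.44). Regions shared by overlapping genes were taken out of the annotation used for counting, so its value comes from what remained. The 3′ end of 7SK is shown because it holds no AATAAA.
7SK, chr6:52995921-52995950, plus strand: ggcgctgcatgtggcagtctgcctttcttt

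Spliceosomal snRNAs lay less far down. All 19 snRNA genes tested were below the median by more than 0.5, beside 22.1% of all genes, with a median of -1.51 and a total range from -2.59 (RNVU1-18) to -0.59 (RNU6-2). This holds only for those at or over the minimum in both columns, since 5 more snRNA genes reached 5 TPM in the PABPN IP alone and none of them lay below the median. The 8 U1 genes, which pair with the start of introns, had a median of -2.0, the 6 U5 genes one of -1.12, and the 2 U4 genes, RNU4-1 and RNU4-2, -1.60 and -1.16. Several are near-identical copies, so the split of reads between them is uncertain. The 3 genes of U3, the snoRNA that guides early cleavage of the ribosomal RNA precursor, were at -3.32 (SNORD3A, 550 to 119 TPM), -2.58 (SNORD3B-2) and -2.48 (SNORD3B-1). RNY1, a Y RNA bound by Ro60, went from 42.5 to 6.27 TPM (-3.87). VTRNA1-3, a vault RNA, did not follow the others, at 87.7 TPM in the Input and 185 in the PABPN IP (-0.03). The 2 small RNAs above the limit, SNORA11F (11.4 to 149 TPM, 2.59) and SNORA80C (27.0 to 274 TPM, 2.23), are box H/ACA snoRNAs that overlap or lie close to other genes in GENCODE release 44. The part of surrounding transcripts in their values was not tested. In the PABPC IP the small RNA list had a centred median of -5.62.

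Mitochondrially encoded mRNAs were among the most abundant transcripts of the PABPN IP, with MT-CO1 first and MT-CO3 second. They are transcribed inside mitochondria and most receive short tails from a mitochondrial poly(A) polymerase. All 13 were tested, 6 lay above the median by more than 0.5 and none below, with a median of 0.37, beside 25.1% of all genes above. They took 6.19% of the TPM sum in the Input, 21.2% in the PABPN IP and 2.46% in the PABPC IP. MT-CO1, encoding subunit I of cytochrome c oxidase, was at 19312 TPM in the Input and 95994 in the PABPN IP (1.20), against 7230 TPM in the PABPC IP. MT-CO3 went from 11770 to 52268 TPM (1.04) and MT-CO2 from 9241 to 23217 TPM (0.22), so the 3 oxidase subunits differed among themselves.

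MT-CYB, the cytochrome b of complex III, went from 2170 to 8308 TPM (0.83). The ATP synthase pair MT-ATP8 and MT-ATP6, which share one transcript, lay at 0.75 and 0.15. MT-ND6, the only one of these mRNAs encoded on the light strand and known as the one that lacks a regular tail, was the scarcest at 55.2 TPM in the Input and the highest by ratio at 370 TPM in the PABPN IP (1.64). The 7 complex I subunits had a median of 0.35, and MT-ND3 (1768 to 3729 TPM, -0.03) and MT-ND4 (2230 to 4787 TPM, -0.01) stood at the median gene. In the PABPC IP the centred values of all 13 ran from -2.41 (MT-CO1) to -1.24 (MT-ATP8). The samples include no IP with a control antibody, and the study reports that its IgG pulldowns yielded too little RNA for sequencing. RNA carried along in the PABPN IP without being bound was therefore not tested. In its separate IPs from total lysate, the study counts some mitochondrially encoded genes among those depleted from both IPs.

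**Figure D2:**
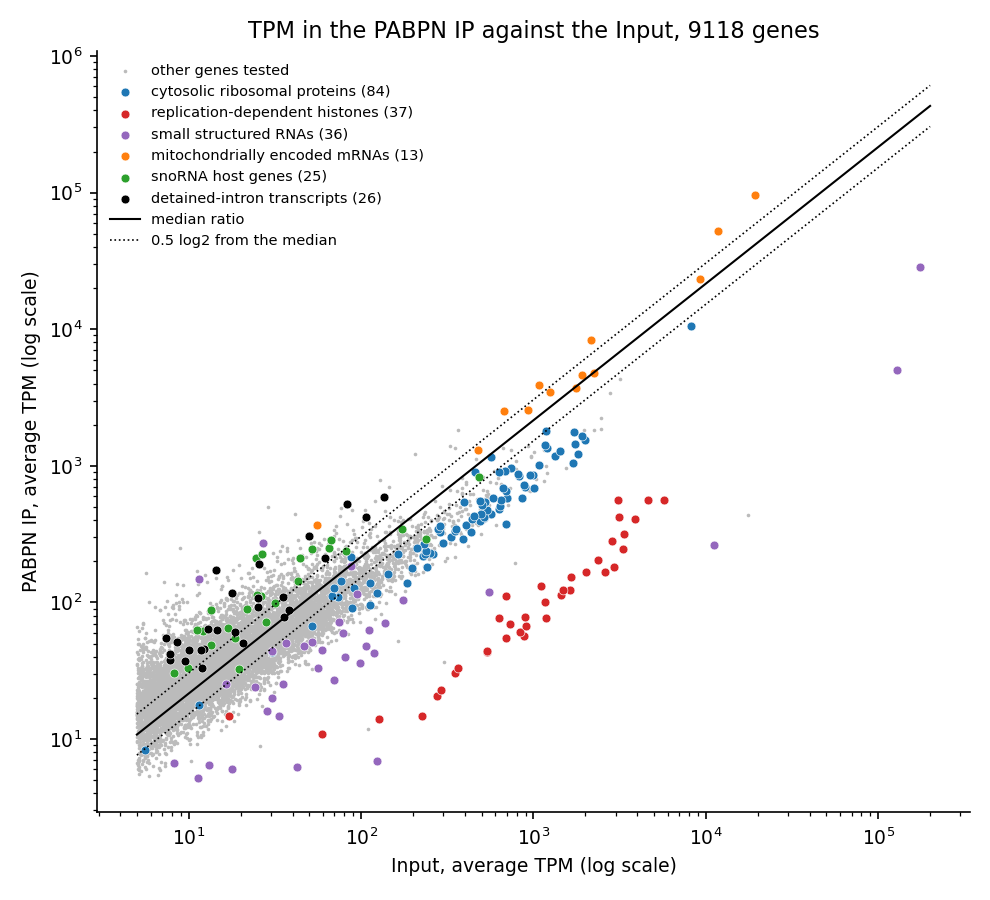
Average TPM of 9118 genes in the PABPN IP against the Input, both on log scales, with 6 gene lists coloured; the solid line marks the median ratio of 2.16-fold and the dotted lines 0.5 log2 to each side. All 37 histone mRNAs and 32 of the 36 small structured RNAs lie below the lower dotted line, and the 26 detained-intron transcripts lie above the median line.

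By biotype, protein-coding genes set the median, as 8632 of the 9118 genes, with a median of -0.02 (1.09 before centring). Noncoding classes lay on both sides of it. The 261 lncRNAs had a median of 0.67, with 153 above the median by more than 0.5 (58.6%, beside 25.1% of all genes) and 20 below. The 63 transcribed unprocessed pseudogenes, copies of genes that kept their introns, had a median of 0.71, with 44 above and 2 below. All 63 overlap or lie close to another gene. The 67 processed pseudogenes, intronless copies of mRNAs, had a median of -0.80 (0.31 before centring), with 7 above and 50 below, beside 22.1% of all genes below. Of these, 27 were copies of ribosomal protein genes, none of which lay above the limit and 22 below, with a median of -0.89. The other 40 had a median of -0.78 with 28 below, so the low values were not limited to the ribosomal protein copies. Reads from a processed pseudogene and its parent mRNA can be hard to assign apart. The 11 genes of the class misc_RNA, which holds 7SK, signal recognition particle and Y RNAs, had a median of -2.67, with 9 below. This median depended on the genes kept. It was -3.69 over 15 genes with the minimum in the Input only and a pseudocount of 0.5, and -4.43 over 4 genes at a minimum of 20. Without genes that overlap or lie close to another it was -3.79 over 3 genes.

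**Figure D3:**
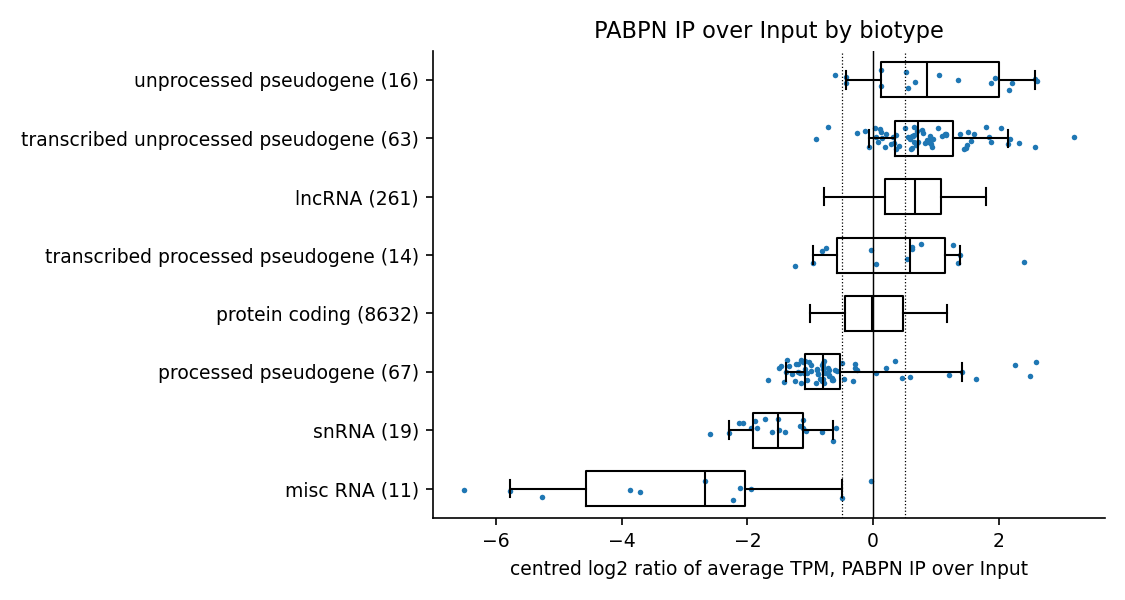
Centred log2 ratio of PABPN IP over Input by biotype for classes with at least 10 genes tested; boxes are quartiles with the median, whiskers the 5th and 95th percentiles, points single genes in classes of up to 100 genes, and dotted lines the limits of 0.5. Medians run from -2.67 for misc_RNA to 0.86 for unprocessed pseudogenes.

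Among lncRNAs, a list compiled as nuclear lncRNAs was highest at the minimum of 5, with a median of 0.97 over 6 tested. Of these, 5 lay above the limit (beside 25.1% of all genes) and 1 below (beside 22.1%). Where its members, among them TUG1 and OIP5-AS1, are found in these cells was not measured here, so the name is that of the list only. At a minimum of 20 the hosts of snoRNAs, described below, were higher, at 1.19 against 1.02 over 4 members of the nuclear lncRNA list. MIR17HG, the host of the miR-17-92 microRNA cluster, was the highest lncRNA, with 8.53 TPM in the Input and 135 in the PABPN IP (2.88). TUG1 went from 34 to 237 TPM (1.69), JPX from 7.21 to 33.8 TPM (1.12) and OIP5-AS1 from 21.9 to 70.9 TPM (0.59). MALAT1, a nuclear-speckle RNA whose mature end is a triple helix in place of a tail, was at 55.0 TPM in the Input, 208 in the PABPN IP (0.81) and 10.3 in the PABPC IP. NEAT1, the scaffold of paraspeckles, was at 4.27 TPM in the Input and 55.8 in the PABPN IP, outside the minimum of 5. TERC, the telomerase RNA, was low at 420 and 257 TPM (-1.82). The 3 tested lncRNAs of a list compiled as cytoplasmic stayed inside the limits, with NORAD, which binds PUMILIO proteins, at 0.20, DANCR at -0.12 and EPB41L4A-AS1 at 0.46.

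Hosts of snoRNAs, which release their snoRNAs from spliced introns were above the median as a group. Of 25 tested, 18 lay above by more than 0.5 and 1 below, with a median of 0.82, where 25.1% of all genes lay above and 22.1% below. All 25 overlap or lie close to another gene, so no median without such genes could be given. SNHG25 (26.4 to 228 TPM, 2.0) and SNHG9 (24.6 to 211 TPM, 1.99) were highest, and SNHG29 (237 to 293 TPM, -0.80) lowest. SNHG1 went from 52.2 to 248 TPM (1.14), and GAS5, whose spliced RNA is a target of nonsense-mediated decay, from 81.6 to 239 TPM (0.44). Among the lncRNAs named for their antisense partner, 25 of 56 lay above and 2 below, with a median of 0.45, and among those with a LINC symbol 10 of 18 lay above and 2 below, with a median of 0.71. After MIR17HG the highest lncRNAs were LINC01311 (6.35 to 93.2 TPM, 2.77), ENSG00000261526 (2.57), ENSG00000259943 (2.49) and ENSG00000272599 (2.33). LINC01311, ENSG00000261526 and ENSG00000272599 overlap another gene, and ENSG00000261526 starts 606 bases downstream of ABHD17A and ENSG00000272599 548 bases downstream of SNORA11F. LINC00632 was the second lowest at -2.64, from 26 to 8.96 TPM. Single-exon lncRNAs (71, median 0.65) and those with 2 and more exons (190, median 0.67) had much the same median.

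Messenger RNAs of the translation apparatus lay below the median gene. Cytosolic ribosomal proteins are made from short, stable and abundant mRNAs, and 77 of 84 lay below by more than 0.5 and none above, beside 22.1% of all genes below. Their median was -1.17 (-0.06 before centring), so relative to the Input itself these mRNAs were about level, 37 of the 84 being higher in the PABPN IP. All 32 small-subunit genes with an RPS symbol lay below the limit, with a median of -1.21, as did 43 of the 50 large-subunit genes with an RPL symbol, with a median of -1.12. RPS3 was the lowest, with 693 TPM in the Input and 377 in the PABPN IP (-1.99). RPL8 went from 1707 to 1050 TPM (-1.81) and RPL7A from 1750 to 1439 TPM (-1.39). RPS2 went from 8171 to 10493 TPM (-0.75), and since RPS2 is also part of one construct, transcripts of the gene and of the transgene cannot be told apart. The highest was RPL7L1, a nucleolar assembly factor that carries a ribosomal protein symbol, at 0.18. In the PABPC IP the list had a centred median of 0.64.

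The other translation lists lay on the same side, with 22.1% of all genes below and 25.1% above as the background. Translation factors had a median of -0.51 (0.60 before centring), with 31 of 62 below and 4 above. EEF1G, a subunit of the elongation factor complex, was lowest (1550 to 958 TPM, -1.80) and the kinase EIF2AK4 highest (10.1 to 45.5 TPM, 1.06). Cytosolic aminoacyl-tRNA synthetases had a median of -0.55 (0.55 before centring), with 10 of 19 below and none above, from FARSA (-1.11) to LARS1 (0.25). Mitochondrial ribosomal proteins, encoded in the nucleus, had a median of -0.50 (0.61 before centring), with 38 of 77 below and 1 above, MRPS25 (28.6 to 167 TPM, 1.43). Proteins entering the endoplasmic reticulum are handled by a list with a median of -0.67 (0.44 before centring), 19 of 29 below and 1 above, from SEC61B (-1.20) to SEC62 (0.55). Abundant mRNAs in general lay low. In the highest of 5 equal bins of Input TPM (46.4 and more), 53.8% of protein-coding genes lay below, with a median of -0.55. Translation factors, synthetases and mitochondrial ribosomal proteins, with median Input TPM of 53.3, 55.9 and 47.5, were near or under that share. The bins exclude the listed histone and the mitochondrial genes, and the Input is also the denominator of the ratio.

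Metabolic and folding lists lay below the median gene too, again beside 22.1% of all genes below the limit. Glycolytic enzymes had a median of -1.21 (-0.10 before centring), with 11 of 16 below and 1 above. LDHA was lowest, with 308 TPM in the Input and 201 in the PABPN IP (-1.73), GAPDH went from 2463 to 1863 TPM (-1.51), and ENO2, the neuronal enolase, was highest at 0.69. Nuclear-encoded subunits of oxidative phosphorylation had a median of -0.77 (0.34 before centring), with 55 of 79 below and none above, which set them on the other side of the median gene from the mitochondrially encoded subunits of the same complexes (0.37). Proteasome subunits had a median of -0.93 (0.18 before centring), with 32 of 42 below and 2 above, from PSMB3 (-1.68) to the assembly chaperone PSMG3 (0.87). All 8 subunits of the CCT chaperonin, which folds actin and tubulin, lay below (median -0.97, 0.14 before centring), from CCT7 (-1.57) to CCT6A (-0.64). Its clients lay there too, with all 12 tubulin and actin genes below and a median of -1.36 (-0.25 before centring), from TUBA1B (1148 to 775 TPM, -1.68) to TUBB6 (-0.58). ACTB went from 1891 to 1610 TPM (-1.34), and CKB, the brain-type creatine kinase, from 971 to 1156 TPM (-0.86).

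**Figure D4:**
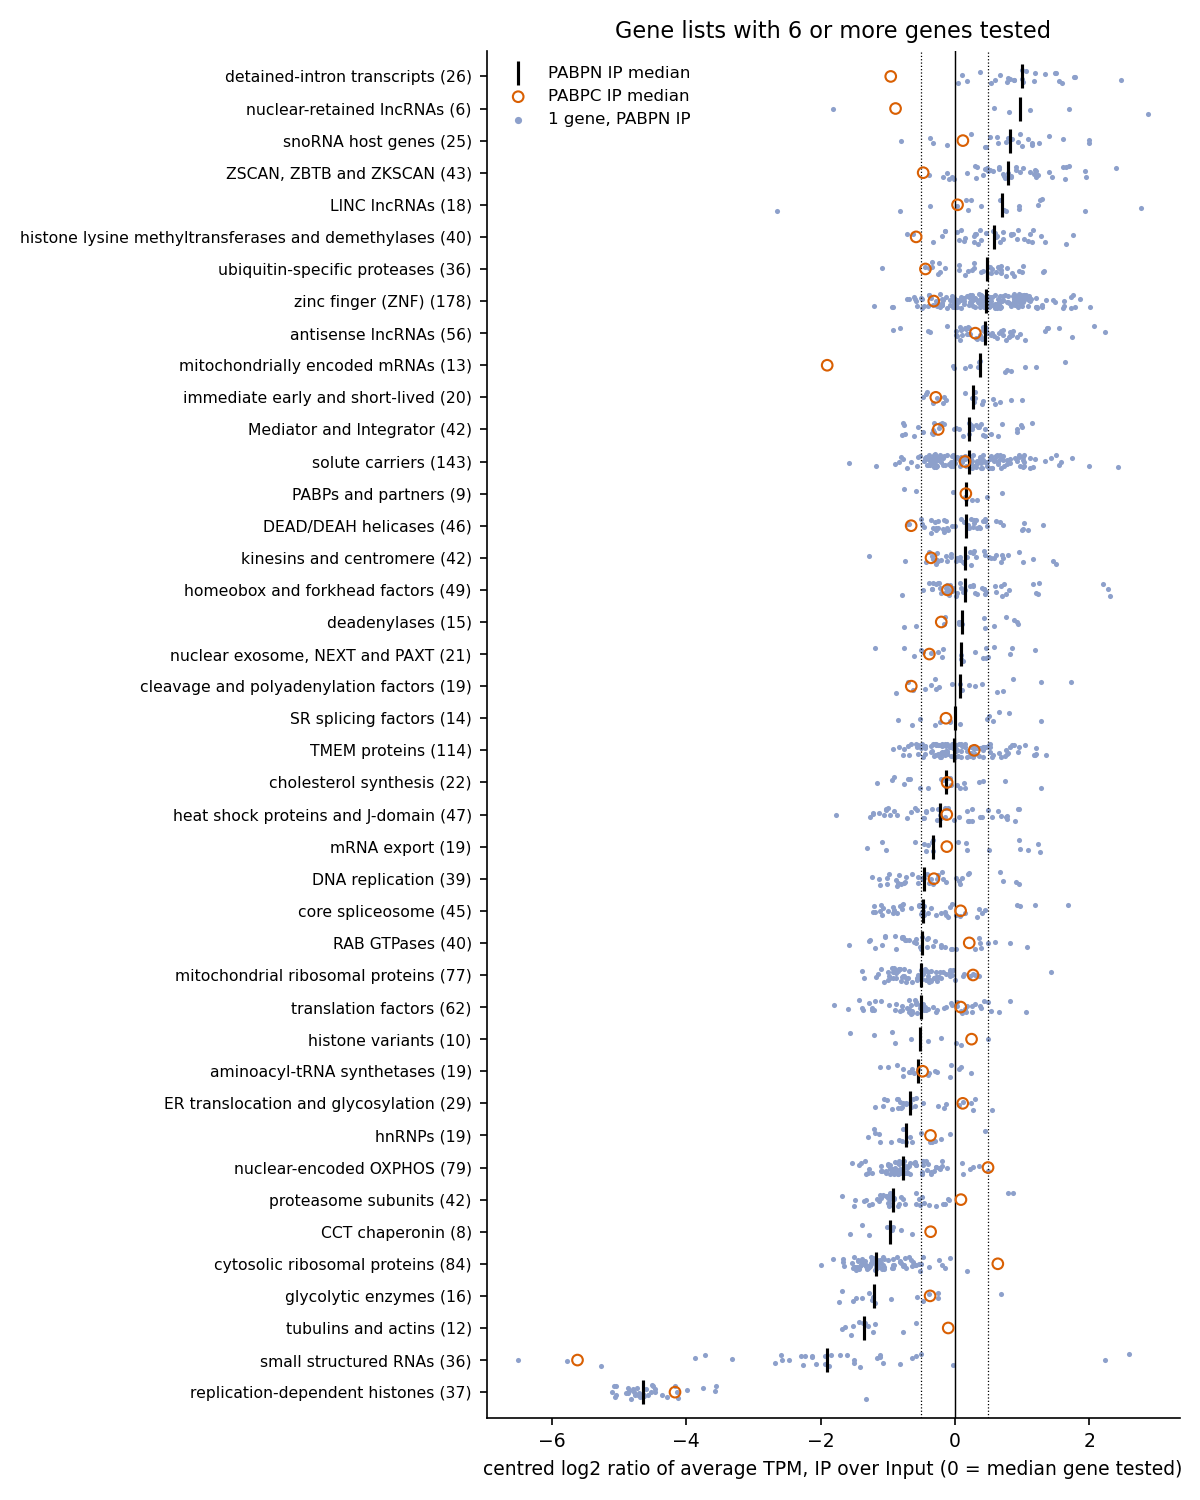
Centred log2 ratio of average TPM for gene lists with at least 6 genes tested, ordered by their PABPN IP median (black tick); points are single genes in the PABPN IP, hollow circles the PABPC IP median of the same genes, and numbers in brackets the genes tested. Medians of the PABPN IP run from -4.64 for replication-dependent histones to 1.00 for detained-intron transcripts; 0 is the median gene, and 1.11 added to a PABPN value gives the ratio before centring.

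Transcripts with detained introns, which are polyadenylated but keep introns and wait in the nucleus, were the highest list at the minimum of 5 TPM. Of 26 tested, 22 lay above the median by more than 0.5 and none below, beside 25.1% of all genes above, with a median of 1.00. The lowest, SRRM1, stood at 0.04, so no member lay below the median gene. CCNL2, a cyclin that pairs with splicing kinases, was highest, with 14.4 TPM in the Input, 173 in the PABPN IP (2.47) and 13.1 in the PABPC IP. OGT, the O-GlcNAc transferase, went from 25.7 to 192 TPM (1.79) and its counterpart OGA from 25.2 to 108 TPM (1.00). NKTR went from 7.40 to 54.5 TPM (1.77), and RBM5, a splicing regulator, from 17.9 to 117 TPM (1.60). The rank of the list changed with the genes kept. At a minimum of 1 its median was 0.81, under the nuclear lncRNAs (1.06). At 20 it was 1.15, under the snoRNA hosts (1.19). Without genes that overlap or lie close to another it was 0.86, under the LINC lncRNAs (1.03).

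The speckle proteins SON (50.0 to 308 TPM, 1.51) and SRRM2 (82.6 to 524 TPM, 1.56) stood close together. CLK1, a kinase of SR proteins, went from 9.97 to 44.7 TPM (1.05), and CLK4 was outside the minimum with 4.57 TPM in the Input and 22.5 in the PABPN IP. MAT2A, the S-adenosylmethionine synthetase that is controlled through its intron, went from 106 to 421 TPM (0.88). In the PABPC IP the centred median of these 26 transcripts was -0.96. Deposited TPM adds exonic and intronic TPM, so intron reads are part of these values, and their share is not given in the columns used.

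Splicing proteins themselves were spread, and their counts stand beside 25.1% above and 22.1% below among all genes. SR factors had a median of 0.00, with 5 of 14 above and 3 below, from SRSF1 (246 to 294 TPM, -0.85) to SRSF11 (157 TPM in the PABPN IP, 1.28). SRSF3 was at -0.63 and SRSF7 at -0.08. The hnRNPs, which package nuclear RNA, had a median of -0.73 (0.38 before centring), with 12 of 19 below and none above, from HNRNPAB (372 to 328 TPM, -1.29) to HNRNPH1 (59.2 to 173 TPM, 0.44). HNRNPA2B1 was at -0.79. The core spliceosome had a median of -0.47 (0.64 before centring), with 20 of 45 below and 4 above, among which PRPF39 (10.3 to 71.3 TPM, 1.68) was highest and SNRPB2 (-1.22) lowest. Its median Input TPM was 48.3, and 53.8% of genes in the highest of 5 Input bins lay below. RNA helicases of the DEAD and DEAH families had a median of 0.16, with 8 of 46 above (17.4%) and 3 below, from DDX1 (-0.70) to DDX51 (1.31), but the median turned to -0.25 over the 9 that neither overlap nor lie close to another gene.

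Several lists of transcription and chromatin regulators lay above the median, beside 25.1% of all genes above the limit. C2H2 zinc finger genes with a ZNF symbol, mostly repressors of transposons, had a median of 0.47, with 86 of 178 above by more than 0.5 and 10 below. ZNF736 was highest (5.01 to 43.3 TPM, 2.01) and ZNF124 lowest (19.6 to 18.3 TPM, -1.21). The related ZSCAN, ZBTB and ZKSCAN genes had a median of 0.79, with 29 of 43 above and none below, from ZBTB12 (-0.38) to ZBTB40 (8.07 to 91.7 TPM, 2.40). Enzymes that write or erase lysine methylation on histones had a median of 0.58, with 21 of 40 above and 2 below. KMT2A (6.90 to 50.4 TPM, 1.76) was the highest of these and KDM1A (57.7 to 76.2 TPM, -0.71) the lowest. Scarce mRNAs in general lay high. The ZNF, the ZSCAN, ZBTB and ZKSCAN, and the lysine methylation lists had median Input TPM of 10.9, 9.82 and 12.9. In the bin of 8.86 to 14.1 Input TPM, of 5 equal bins, 33.4% of protein-coding genes lay above (median 0.26). Among the longer transcripts of that bin 44.5% did (median 0.42). The parts of abundance and length in these lists were not tested.

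Mediator and Integrator subunits had a median of 0.22, with 8 of 42 above and 6 below, from MED4 (-0.78) to MED12L (1.15), but the median turned to -0.09 over the 11 that neither overlap nor lie close to another gene. Immediate early and other short-lived mRNAs had a median of 0.27, with 5 of 20 above and none below, from JUND (-0.48) to the decay factor ZFP36L1 (11.5 to 49.3 TPM, 0.99). These 2 lists had shares above the limit of 19.0% and 25%, near the 25.1% of all genes.

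The mRNAs of the tail machinery did not form a block, and several shares were near the 25.1% above and 22.1% below of all genes. PABPN1 went from 101 TPM in the Input to 355 in the PABPN IP (0.70) and was the only one of 9 genes for poly(A)-binding proteins and partners above the limit, while PAIP1 (-0.58) and PAIP2 (-0.76), which bind PABPC1, lay below. PABPC1 itself was at 466 and 1115 TPM (0.15) and PABPC4 at 66.2 and 179 TPM (0.33). Of 19 cleavage and polyadenylation factors, 5 lay above (26.3%) and 3 below (15.8%), with a median of 0.07. RBBP6 (10.4 to 74.2 TPM, 1.73) and PCF11 (9.27 to 48.8 TPM, 1.29), both of which act in the cleavage complex, were highest, and CLP1 (-0.88) lowest. Of 21 subunits of the nuclear exosome and its adaptors NEXT and PAXT, 4 lay above and 4 below (19.0% each), with a median of 0.09. RBM26 (22.2 to 110 TPM, 1.20) was highest and C1D (-1.19) lowest, and ZFC3H1, the PAXT scaffold, stood at 0.47. Without genes that overlap or lie close to another, these 2 medians were -0.06 and -0.09.

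Deadenylases, which shorten tails, had a median of 0.11, with 5 of 15 above (33.3%, beside 25.1% of all genes) and 2 below (13.3%, beside 22.1%), from CNOT3 (-0.76) to TOB2 (41.2 to 171 TPM, 0.94). The mRNA export list had a median of -0.33 (0.78 before centring), with 6 of 19 above (31.6%) and 4 below (21.1%). Its ends were both export factors, ALYREF (129 to 112 TPM, -1.31) and CHTOP (53.0 to 276 TPM, 1.27), and the helicase DDX39B (1.09) lay far from its paralogue DDX39A (-0.33).

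The highest single protein-coding gene was AMH, the anti-Mullerian hormone, with 5.63 TPM in the Input, 164 in the PABPN IP (3.76) and 9.34 in the PABPC IP. AMH lies on chromosome 19 (chr19:2249309-2252073, plus strand, hg38) and starts 654 bases downstream of SF3A2, a spliceosome gene on the same strand that stood at 0.41. After it came LBHD1 (5.91 to 102 TPM, 2.99), PILRB (9.32 to 134 TPM, 2.74), CHKB, a choline kinase (7.53 to 102 TPM, 2.66), AGAP9 (8.46 to 114 TPM, 2.65) and PKD1, polycystin 1 (5.46 to 71.0 TPM, 2.59). The list ended with the intronless RANBP6 (6.77 to 87.3 TPM, 2.58), AGAP6 (7.32 to 93.2 TPM, 2.56), CCNL2 (2.47) and TUBGCP6, a subunit of the gamma-tubulin ring (8.10 to 96.0 TPM, 2.46). The highest Input value among the 10 was the 14.4 TPM of CCNL2.

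Of these 10, 9 overlapped another gene or started within 5 kb downstream of a gene on the same strand, as did 74.8% of the 8632 protein-coding genes tested. The last condition, with or without an overlap, was met by 6 of the 10, by 47 of the 200 highest genes, and by 1679 of all 8632. The share that overlap or lie close was 76.0% in the highest 50, 75% in the highest 100 and 80.5% in the highest 200. The methods of the study remove genes with transcription upstream of their start, but that filter was not applied here, and TNFRSF13C, which the study names as removed, is still listed in the deposited table. The part of readthrough from upstream genes in the highest values was not tested.

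Gene structure moved with the ratio across protein-coding genes. The listed histone genes and the mitochondrial genes were left out here, which left 8580 genes. Spearman's rho across genes, which are not independent replicates, was 0.49 with transcript length, 0.43 with coding length, 0.23 with exon number, 0.20 with total intron length and -0.09 with GC content. With Input TPM it was -0.51, but the Input is also the denominator of the ratio. Genes were also split into 5 equal bins. In the bin of shortest coding lengths 39.7% of genes lay below by more than 0.5 and 7.98% above, and in the longest 4.90% below and 49.0% above. By exon number the pattern bent. Genes with a single exon (135) had a median of 0.24, those with 4 to 6 exons the lowest at -0.23, and those with 26 and more the highest at 0.51.

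Longer transcripts were also less abundant in the Input, so both were looked at together. In the lowest of 5 bins of Input TPM longer transcripts, split at the median length, had a median of 0.58 and shorter ones of 0.18, and in the highest bin these were -0.40 and -0.69. Longer transcripts were above shorter ones in both, and in the 3 bins between. The bins were made from the Input, which is also the denominator of the ratio, so the separate parts of length and abundance were not tested. In the PABPC IP rho was -0.70 with coding length and 0.33 with Input TPM. Fragment size, tail length and intron reads were not analysed here, and their part in these trends was not tested.

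**Figure D5:**
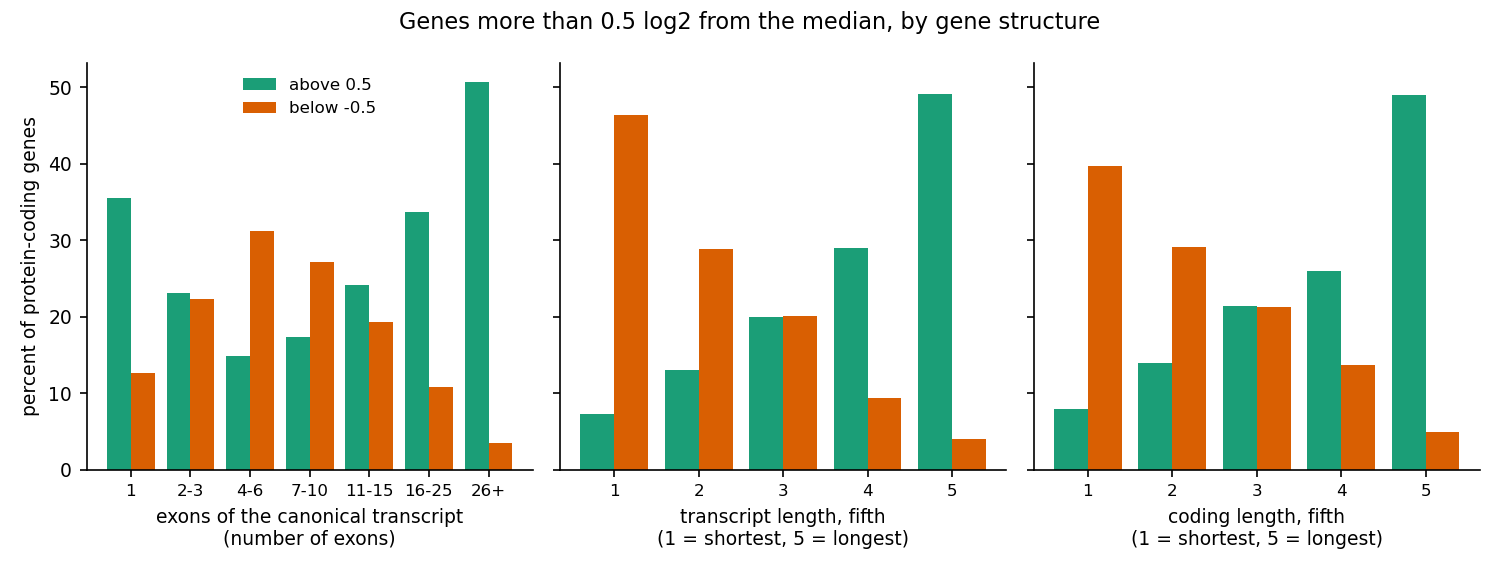
Percent of protein-coding genes (without the listed replication-dependent histone genes and the mitochondrial genes) above 0.5 and below -0.5 in centred log2 ratio, by exon number of the canonical transcript and by 5 equal bins of transcript and coding length. The share above goes from 7.28% in the shortest to 49.1% in the longest bin of transcript lengths, and the share below from 46.4% to 4.08%.

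The minimum of 5 TPM left out far more genes on one side. In the Input alone 14 genes reached it and in the PABPN IP alone 3285, of which 2193 were protein-coding, 798 lncRNAs and 108 transcribed unprocessed pseudogenes. The highest by Input TPM of the 14 were H2AC8 (64.2 TPM in the Input and 4.94 in the PABPN IP), RN7SL5P (39.0 and 3.05), RN7SL128P (12.9 and 1.53), H2AC18 (11.8 and 1.36) and H3C4 (8.73 and 3.75), again histones and signal recognition particle RNA copies. The highest in the PABPN IP on the other side were the lncRNA ENSG00000230149 (3.22 and 94.9), HERC2P2 (3.48 and 88.2), the leukotriene receptor LTB4R2 (4.84 and 85.1), PKD1P6 (84.6 TPM in the PABPN IP, just short of the minimum in the Input) and RHPN1 (4.94 and 82.5). Among the small structured RNAs, 10 genes reached the minimum in the PABPN IP alone, and none of their ratios lay below the median gene, although reaching the minimum in that column alone itself favours high ratios. RNU6-322P (2.50 TPM in the Input and 32.4 in the PABPN IP, 2.59), RNU6-6P (2.58), RNU2-32P (2.33) and RNU6-8 (1.63) are snRNA genes or copies, and RNU6ATAC of the minor spliceosome stood at 0.01. BCYRN1, a brain cytoplasmic RNA, was at 4.10 and 52.2 TPM (2.56), and RN7SL181P, a signal recognition particle RNA copy, at 3.09. These 7 genes were named after their values were seen. At the edge itself, the 588 genes with 5 to 6 TPM in the Input had a median of 0.55 and the 676 genes with 4 to 5 TPM, which are outside, one of 0.53. The closest pair was PTPRK inside (0.45) and STK11IP outside (0.38).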

How the data were processed

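RNA of HEK293T cells, by the study's text of their cytoplasmic portion, was sequenced as ribodepleted, stranded, paired-end libraries. Per the submitters' processing notes and the study's methods, STAR alignment against hg38 was followed by featureCounts 2.0.2 with a custom annotation without overlapping regions and readthrough transcripts. The authors deposited TPM as one average per fraction, the sum of exonic and intronic TPM, with the same TPM values on 3 rows per gene. The study's own filter on genes with upstream transcription was not applied. A normalized edit signal that the authors deposited was not used.

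Here 1 row per gene was kept, log2(PABPN IP TPM / Input TPM) was computed for genes with TPM of at least 5 in both, and its median was subtracted. No pseudocount was added. Gene positions, structure and sequences came from GENCODE release 44 and hg38, matched by gene identifier for 9110 of 9118 genes. TPM over all genes summed to 854272 (Input) and 975719 (PABPN IP), and the columns hold no read counts. Without per-sample values no test was made. Named genes are the 10 highest and 10 lowest protein-coding genes, 5 and 5 lncRNAs, the ends of each list, 5 genes each side outside the minimum, and a fixed set, of which RPPH1 and RMRP were not analysed here. Other members named within a list (such as NKTR, OGA, RBM5, SRRM2, RPL8, HOXB3, HOXD9, DDX39A and DDX39B), and the genes read from the printed 3′ ends, were chosen after their values were seen. The members and the 45 lists were chosen with earlier results of these data known. Alternatives changed the minimum, pseudocount, centring, limit, gene set and summary. The ratio was checked on simulated data. Tools were Python 3.11.15, pandas 2.3.3, NumPy 2.4.6, SciPy 1.17.1, pyfaidx 0.9.0.4 and matplotlib 3.10.9.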

Additional observations from a re-analysis of the deposited data

How the results depend on the processing

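No paired analysis was possible because the deposited values are averages over replicates, and leaving out a replicate could not be run for the same reason. Of 298 medians recomputed with another TPM minimum, a pseudocount, without neighbouring genes or as means, 280 kept their sign. Without centring only 4 of 6 biotype and 28 of 45 list medians did. Counts above and below by more than 0.5 were 7548 and 85 without centring, 6962 and 122 with columns rescaled to equal sums, 851 and 513 at a limit of 1, 3489 and 3329 at a TPM minimum of 1, and 870 and 759 at a minimum of 20. At a minimum of 1 the median was -0.070 for protein-coding genes, -4.79 for replication-dependent histones, -1.35 for ribosomal proteins and 0.18 for mitochondrial mRNAs. At a minimum of 20 it was 0.0011 for protein-coding genes, -0.57 for processed pseudogenes, 0.60 for transcribed unprocessed pseudogenes, -4.33 for histones, -0.86 for ribosomal proteins, 1.19 for snoRNA hosts and 0.36 for ZNF genes. Also at 20 it was 0.68 for mitochondrial mRNAs, -0.25 for mitochondrial ribosomal proteins, -0.27 for translation factors and -0.31 for aminoacyl-tRNA synthetases. Without genes that overlap or lie close to another it was 0.00049 for protein-coding genes, 0.81 for lncRNAs, -4.40 for histones and 0.23 for histone variants, and 32 of 40 list medians kept their sign. The others that turned there were homeobox and forkhead factors (-0.13), Mediator and Integrator (-0.09), SR factors (0.15), helicases (-0.25), cleavage factors (-0.06), exosome genes (-0.09) and kinesins (-0.08). RAB genes went to -0.05, mitochondrial ribosomal proteins to -0.35 and antisense lncRNAs to 0.86. No gene remained there for transcribed unprocessed pseudogenes, snoRNA hosts, mitochondrial mRNAs, nuclear lncRNAs, microRNA hosts, or tubulins and actins. The mean of processed pseudogenes was -0.60. Without ribosomal protein genes, 37.1% of genes in the bin of shortest coding lengths lay below. Without centring, chosen after seeing the data, the medians were 1.09 for protein-coding genes, 1.78 for lncRNAs, 1.82 for transcribed unprocessed pseudogenes, -0.40 for snRNAs, -3.53 for histones, 1.48 for mitochondrial mRNAs, -0.80 for small RNAs, -0.061 for ribosomal proteins, 1.93 for snoRNA hosts, 1.58 for ZNF genes and 2.10 for detained-intron transcripts. Signs turned without centring for protein-coding genes, processed pseudogenes (0.31), histone variants (0.58), oxidative phosphorylation (0.34), translation factors (0.60), aminoacyl-tRNA synthetases (0.55), proteasome (0.18), CCT (0.14), endoplasmic reticulum genes (0.44), hnRNPs (0.38), mitochondrial ribosomal proteins (0.61), core spliceosome (0.64), DNA replication (0.65), RAB (0.61), mRNA export (0.78), heat shock (0.89), cholesterol synthesis (0.98), SR factors (1.11) and TMEM genes (1.1). The cause of the other shifts was not tested. The columns hold no read counts per gene, so no counting interval is given for low TPM values.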

Other observations

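Some lists not described above spread widely around the median gene, and their counts stand beside 25.1% of all genes above and 22.1% below by more than 0.5. Homeobox, forkhead and SOX factors had a centred log2 median of 0.14, with 14 of 49 above (28.6%) and 1 below, and the median was -0.13 without genes that overlap or lie close to another. Within them the 23 HOX genes, which pattern the body axis, had a median of 0.41, with 10 above and none below. HOXD10 (41.2 TPM in the Input and 442 in the PABPN IP, 2.31), HOXB3 (7.08 and 74.3, 2.28) and HOXD9 (8.27 and 82.1, 2.20) were the highest, while HOXD13 of the same cluster as HOXD10 was at 143 and 221 TPM (-0.47). Solute carriers, a family of membrane transporters, had a median of 0.20, with 47 of 143 above and 11 below. Their ends were both carriers of the inner mitochondrial membrane, SLC25A37, an iron importer (8.49 and 98.3 TPM, 2.43), and SLC25A5, an ADP/ATP exchanger (928 and 669 TPM, -1.58).

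Kinesins and centromere proteins had a median of 0.16, with 13 of 42 above (31.0%) and 2 below, from CENPW (-1.28) to CENPT (1.51), and their median was -0.08 without such neighbours. DNA replication factors lay lower, with a median of -0.45 (0.65 before centring), 17 of 39 below and 4 above, from the sliding clamp PCNA (355 and 326 TPM, -1.23) to POLE (16.8 and 70.3 TPM, 0.95). RAB GTPases of vesicle traffic had a median of -0.50 (0.61 before centring), 19 of 40 below and 3 above, from RAB7A (98.9 and 71.6 TPM, -1.58) to RAB29 (1.08), but over the 12 that neither overlap nor lie close to another gene the median was -0.05. Ubiquitin-specific proteases had a median of 0.47, 18 of 36 above and 1 below, from USP5 (-1.09) to USP28 (1.33). Heat shock and J-domain proteins had a median of -0.22 (0.89 before centring), 16 of 47 below and 9 above (19.1%), with HSP90AB1 (497 and 315 TPM, -1.77) the lowest. Cholesterol synthesis genes had a median of -0.13 (0.98 before centring), 7 of 22 below and 2 above. TMEM genes had a median of -0.01 (1.1 before centring), 23 of 114 above (20.2%, under the share of all genes) and 12 below.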
